A study of Mus musculus with 21 samples.

Results

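Transcripts of 10 enzymes and helper proteins that finish and crosslink collagen were followed in the gastrocnemius of trained and untrained female mice. They are Pcolce, Bmp1, Lox, Loxl1, Loxl2, Plod1, Plod2, P4ha1, P4ha2 and Serpinh1, and they were taken by gene symbol from the 40853 genes of the deposited count table, with no threshold on their values. They were chosen by their role, with their normalized counts and fold changes over the 3 groups already known. All 10 were among the 16129 genes that passed the filter on low counts.

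The 21 C57BL/6NJ mice were 10 weeks old at the start and fell into 3 groups of 7, with 1 library per mouse. The Active group ran on a treadmill on 5 days a week for 6 weeks, in sessions that reached 40 min in all, a warm-up and then running at about 70% of maximal speed, the Activity Reduction group did so for 4 weeks before 2 weeks without running, and the Inactive group was not trained. Every mouse, those of the Inactive group included, completed a maximal running test 48 to 72 h before its muscle was taken, and was fasted for 5 to 6 h, so no group is free of recent exercise. RNA came from the whole medial belly of the muscle, so in these bulk samples fewer cells of a type and less RNA per cell cannot be told apart.

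A collagen chain is modified while it enters the endoplasmic reticulum. Prolyl 4-hydroxylases, whose catalytic subunits include P4ha1 and P4ha2, make the hydroxyproline that keeps the triple helix stable at body temperature, lysyl hydroxylases of the Plod family make the hydroxylysine that carries sugars and later crosslinks, and Serpinh1, also called HSP47, is a chaperone that binds the folded procollagen. Outside the cell, Bmp1 cuts off the C-terminal propeptide with the help of Pcolce, and the copper enzymes Lox, Loxl1 and Loxl2 oxidise lysines so that neighbouring molecules become covalently linked. In skeletal muscle this matrix is made mostly by fibroblasts of the connective tissue sheaths and transmits force to the tendon.

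With edgeR, the level of 0 of the 10 transcripts differed between groups by the thresholds used, an adjusted p under 0.05 and a log2 fold change over 0.25 in either direction. The share of all tested genes called was 0% between the Active and Inactive groups, 0.0124% between the Activity Reduction and Inactive groups, 0% between the Activity Reduction and Active groups and 0% in a test over the 3 groups. DESeq2 on the 3 groups called 1 member, Pcolce, in the comparison of the Active with the Inactive group, where it called 0.442% of genes, in that of the Activity Reduction with the Active group, where it called 0.864%, and in the 3-group test, where it called 1.18%. It called 0 members between the Activity Reduction and Inactive groups, against 0.254% of genes. These members were listed with their group contrasts already known, so their differences are a description, and nothing is read from the counts. The comparisons share groups of mice and are not independent of each other.

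The libraries held 38482455 to 59785132 counts on genes, and every Active library held fewer than every Inactive library. By 16 liver genes the libraries divided into 8 with more liver transcripts, at 682.2 CPM (counts scaled to a fixed library total) or more in sum, and 13 with fewer, at 313.3 CPM or less. The 8 comprised 5 Active, 2 Activity Reduction and 1 Inactive library, so this division is uneven over the groups, and log2 ratios of group means within it, where the side with more liver transcripts holds a single Inactive mouse, are given beside the members. Of the 6 muscle markers 5 were abundant, and the 6 summed to between 133500 and 167300 CPM, but Mylpf, a myosin light chain of fast muscle, was counted at only 1.774 to 3.592 CPM. The part of that low count in any result was not tested.

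Because a long transcript collects more reads, levels of different genes were compared as normalized counts per kb of annotated exon. On this scale, P4ha1 had the highest mean over the 21 libraries, 346.2 ± 32.2 (SD, n = 21), followed by Serpinh1 at 200.1 ± 19.4, Plod1 at 190.9 ± 6.22, Pcolce at 157.9 ± 23.8 and P4ha2 at 133.9 ± 11.2. The other 5 were lower, from Loxl1 at 85.4 ± 14.6 and Bmp1 at 61.8 ± 9.66 to Loxl2 at 33.4 ± 6.12, Plod2 at 32.5 ± 10.2 and Lox at 29.6 ± 9.40. The intracellular modifying enzymes and the chaperone therefore made up most of the upper part of this order and the crosslinking enzymes the lower part, with Plod2 as the exception among the hydroxylases.

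Neighbours in the order were not always separable. Serpinh1 was above Plod1 in 15 of 21 libraries, Loxl2 was above Plod2 in 9, and Plod2 was above Lox in 14, and in these 3 pairs the means differed by less than the larger SD. Pcolce was above P4ha2 in 15 of 21 libraries, and their means differed by 23.99, barely more than the larger SD of 23.75. P4ha1 was above Serpinh1 in all 21 libraries. With the longest annotated transcript as the length in place of all exons, P4ha2 moved from rank 5 to rank 2 and Serpinh1 from rank 2 to rank 5, while P4ha1 stayed first and Lox last.

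**Figure D1:**
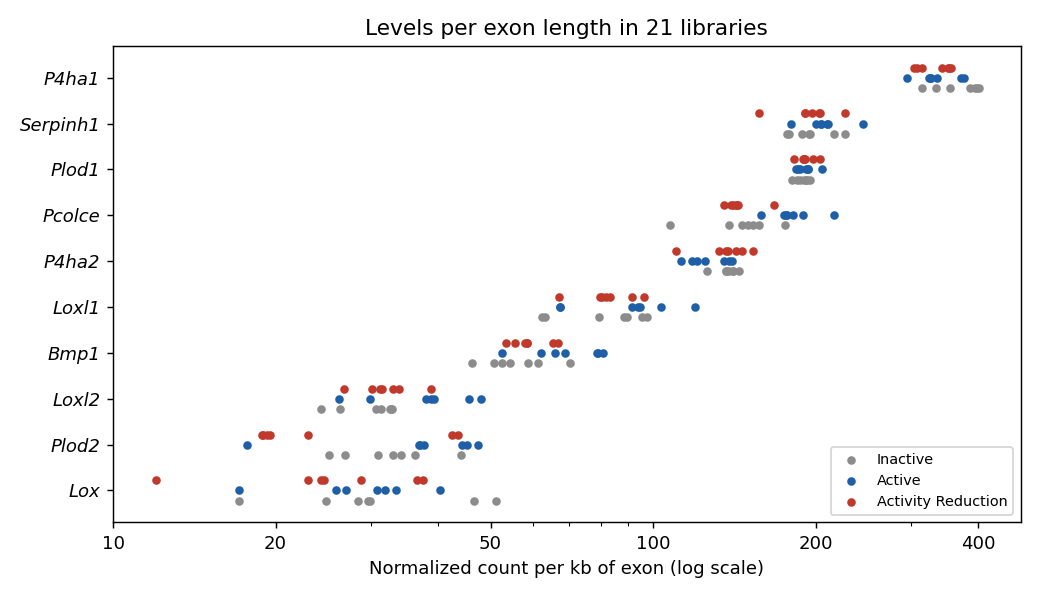
Levels of the 10 transcripts as normalized counts per kb of exon, on a log axis, with 1 point per library and the groups offset within each transcript. P4ha1 lies above every other transcript on average (mean 346.2), and Loxl2, Plod2 and Lox share the range around 30.

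The spread between mice differed from transcript to transcript. Plod1 had a coefficient of variation of 3.26% over the 21 libraries, close to the 2.70% that counting alone gives at its lowest count of 1373. The coefficient of variation was 31.8% for Lox, whose lowest count of 60 gives 12.9% by counting, and 31.3% for Plod2, whose lowest count of 109 gives 9.58%. For the other 7 it lay between 8.33% for P4ha2 and 18.3% for Loxl2.

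**Figure D2:**
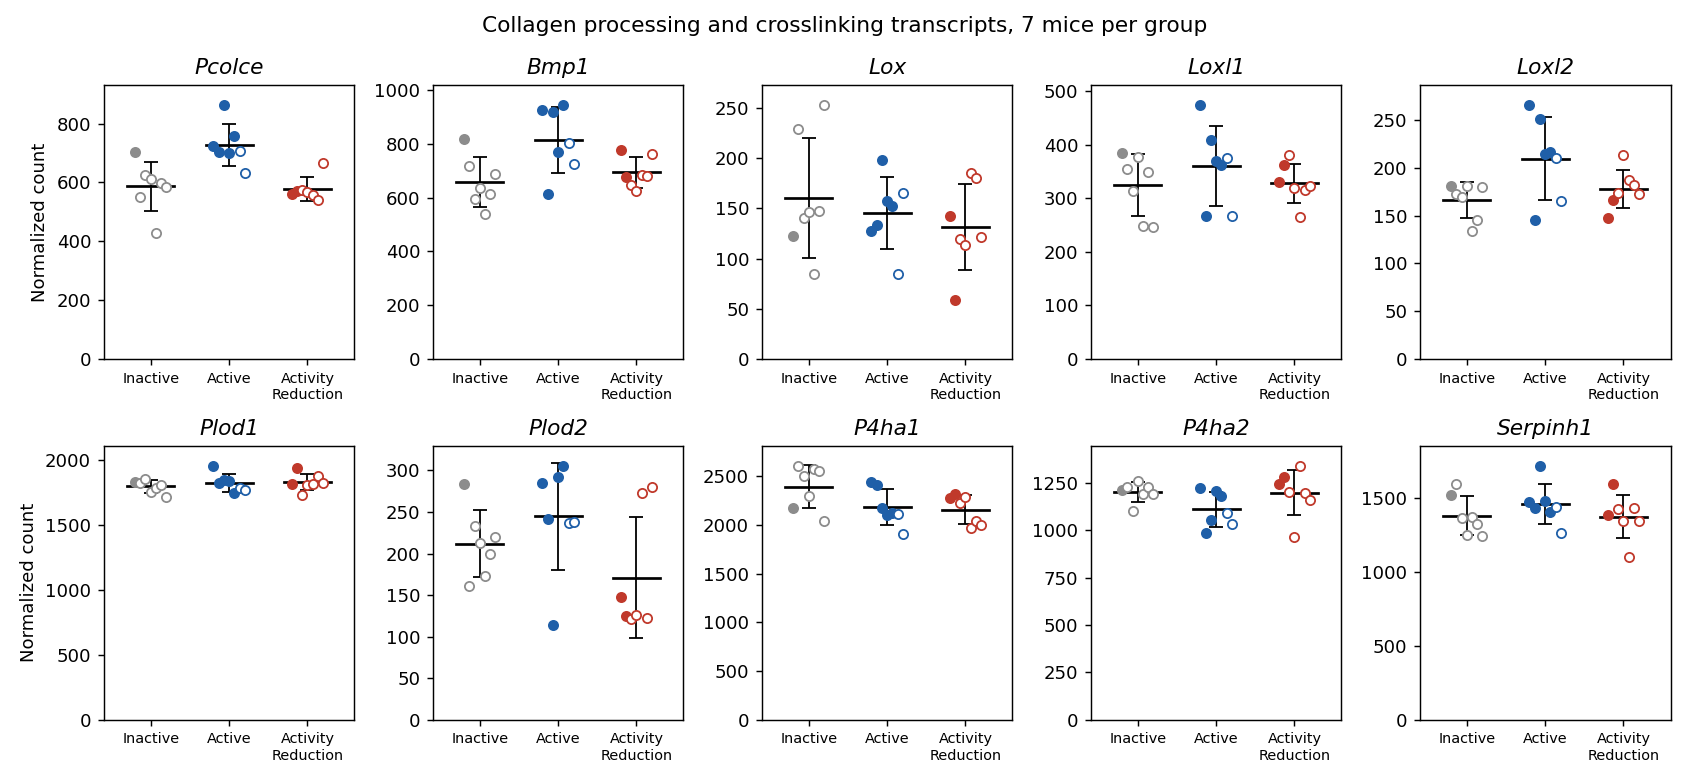
Normalized counts (counts divided by DESeq2 size factors) of each transcript in the 3 groups, with 1 point per mouse, the mean as a horizontal bar and the SD as whiskers. Filled points are the 8 libraries with more liver transcripts and open points the other 13, and 6 of the 7 Activity Reduction points for Pcolce lie below every Active point.

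Pcolce, the secreted enhancer of the C-proteinase, lies on chromosome 5 of GRCm39 from 137603365 to 137612046 on the minus strand. Its normalized count had a lowest, median and highest value of 429.8, 599.2 and 702.0 in the Inactive group, 632.3, 706.5 and 862.3 in the Active group and 540.6, 568.5 and 667.3 in the Activity Reduction group. For Pcolce, 5 of the 7 Active mice were above every Inactive mouse and 6 of the 7 Activity Reduction mice were below every Active mouse, but the groups overlapped in each comparison, as they did for all 10 members. Groups did not overlap for 0.254% of all tested genes between the Active and Inactive groups, for 0.118% between the Activity Reduction and Inactive groups and for 0.291% between the Activity Reduction and Active groups.

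The means for Pcolce were 726.5 ± 70.7 in the Active group and 586.5 ± 83.1 in the Inactive group (SD, n = 7 each), a log2 fold change of 0.32 (SE 0.0826) with an adjusted p = 0.191 from the Benjamini-Hochberg adjusted quasi-likelihood test of edgeR. DESeq2's Wald test gave a Benjamini-Hochberg adjusted p = 0.0414, but it called 0 members in this comparison when fitted on only the 14 libraries. It called any member in 9 of the 21 fits without 1 mouse, for which the share of all genes called was not computed. The Activity Reduction mean was 577.2 ± 41.3, with a log2 fold change of -0.33 (SE 0.0827) against the Active group, an adjusted p = 0.115 from edgeR's test and 0.0166 from DESeq2's. Against the Inactive group the log2 fold change was -0.02 (SE 0.0827), with an adjusted p = 0.989 from edgeR's test.

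Within the 13 libraries that held fewer liver transcripts, Pcolce means had a log2 ratio of 0.24 for 2 Active against 6 Inactive mice and -0.20 for 5 Activity Reduction against 2 Active mice. Among the other 8 it was 0.09 against the single Inactive mouse and -0.40 for 2 Activity Reduction against 5 Active mice. Pcolce correlated with the liver genes at r = 0.567 over the 21 libraries and 0.0545 within the 13. With the mean level of 8 fibroblast markers as a covariate, the edgeR estimate for Pcolce was 0.21 between the Active and Inactive groups and -0.17 between the Activity Reduction and Active groups. In DESeq2 fits added after the data were seen, the calls for Pcolce were lost when the liver division or the fibroblast level was a covariate.

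Bmp1, the procollagen C-proteinase, had normalized counts of 539.3, 635.8 and 818.8 (lowest, median, highest) in the Inactive group, 613.2, 803.3 and 943.3 in the Active group and 624.1, 681.8 and 778.2 in the Activity Reduction group. For Bmp1, 6 of 7 Active mice were above the Inactive median and all 7 Activity Reduction mice were below the Active median, while 4 Active mice were above the highest Activity Reduction mouse. The log2 fold change was 0.31 (SE 0.0954) between the Active and Inactive groups, with an adjusted p = 0.263 from the Benjamini-Hochberg adjusted quasi-likelihood test of edgeR. It was -0.23 (SE 0.0954) between the Activity Reduction and Active groups, with an adjusted p = 0.300 from the same edgeR test, and 0.08 (SE 0.0954) between the Activity Reduction and Inactive groups.

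The Bmp1 estimates moved once other measures were in the model. Between the Active and Inactive groups the edgeR estimate was 0.21 with the liver division and 0.20 with the fibroblast level as a covariate, and between the Activity Reduction and Active groups it was -0.05 with the fibroblast level. Between the Activity Reduction and Inactive groups it was 0.15 with the fibroblast level and 0.06 with the liver division. Pcolce and Bmp1, the partners in propeptide removal, both had their highest mean in the Active group, and neither passed edgeR's thresholds.

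Of the crosslinking enzymes, Loxl2, which also acts on the basement membrane collagen IV, had the largest estimate between the Active and Inactive groups. Its normalized counts were 133.9, 172.8 and 181.1 (lowest, median, highest) in the Inactive group, 145.0, 214.1 and 265.5 in the Active group and 148.0, 174.2 and 214.0 in the Activity Reduction group. For Loxl2, 5 of 7 Active mice were above every Inactive mouse, and 1 of the 2 others was the lowest of its group at 145.0. The log2 fold change was 0.34 (SE 0.120) with an adjusted p = 0.331, and -0.24 (SE 0.120) with an adjusted p = 0.387 between the Activity Reduction and Active groups, both from the Benjamini-Hochberg adjusted quasi-likelihood test of edgeR.

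The second of these estimates for Loxl2 depended on the libraries and the covariate. It was -0.02 among the 13 libraries with fewer liver transcripts, which held 5 Activity Reduction and 2 Active mice. With the fibroblast level as a covariate it was also -0.02. Among the libraries with more liver transcripts, the log2 ratio of Loxl2 means was -0.47 for 2 Activity Reduction against 5 Active mice. Exons of Loxl2, on chromosome 14 from 69846209 to 69933283, share 17.1% of their length with R3hcc1 on the opposite strand. The strand setting of the counting is not given in the sources used here, so reads of these 2 genes may not be separable there.

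Lox, the founding member of the family and the enzyme that also crosslinks elastin, had a coefficient of variation of 37.2% in the Inactive, 24.4% in the Active and 32.8% in the Activity Reduction group. Its normalized counts ran from 84.27 to 252.6 with a median of 146.1 in the Inactive group, from 84.45 to 198.4 with a median of 152.2 in the Active group and from 59.19 to 185.1 with a median of 121.0 in the Activity Reduction group. The groups overlapped, with 2 Inactive mice above every mouse of the other groups and 1 Activity Reduction mouse below them all. Its log2 fold changes were -0.14 (SE 0.238), -0.28 (SE 0.238) and -0.15 (SE 0.240) for Active against Inactive, Activity Reduction against Inactive and Activity Reduction against Active, each little more than 1 SE or less. Within the 13 libraries that held fewer liver transcripts, the log2 ratios of Lox means were -0.42, -0.21 and 0.21 in the same order, and within the other 8 they were 0.33, -0.28 and -0.61.

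Loxl1, which is known for elastic fibre assembly, ran from 246.4 to 385.3 in the Inactive group, from 266.0 to 473.6 in the Active group and from 264.8 to 380.3 in the Activity Reduction group, with medians of 349.1, 370.3 and 323.3. Its largest estimate was 0.16 (SE 0.127) between the Active and Inactive groups, with an adjusted p = 0.692 from the Benjamini-Hochberg adjusted quasi-likelihood test of edgeR. The log2 ratio of Loxl1 means between the Active and Inactive groups was 0.02 within the 13 libraries and -0.03 within the other 8, and between the Activity Reduction and Active groups it was 0.00 and -0.12. The log2 CPM of Loxl1 correlated with the level of the liver genes at r = 0.499 over the 21 libraries and -0.108 within the 13. Loxl1 and Loxl2 had their highest mean in the Active group and Lox in the Inactive group, and a difference between these genes was not tested.

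Plod1 and Plod2, the lysyl hydroxylases of the helix and of the telopeptides respectively, differed most in their spread. Plod1 had group means of 1800 ± 47.7, 1826 ± 68.6 and 1832 ± 63.7 normalized counts in the Inactive, Active and Activity Reduction groups (SD, n = 7 each). Its 3 log2 fold changes lay between 0.00 and 0.03, with an SE of 0.0320 for Active against Inactive. It had the smallest coefficient of variation of the 10 members. Within the 13 and the 8 libraries, its log2 ratio of means was -0.01 and 0.01 for Active against Inactive. It correlated with the liver genes at r = 0.545 over the 21 libraries and 0.607 within the 13.

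Plod2 had normalized counts of 161.4, 212.6 and 283.6 (lowest, median, highest) in the Inactive group, 113.8, 242.1 and 305.3 in the Active group and 121.3, 125.9 and 279.6 in the Activity Reduction group. The Activity Reduction mice were spread unevenly, with 5 of 7 below every Inactive mouse, at 147.95 or less, and the other 2 at 273.01 and 279.63. In the Active group 1 mouse was at 113.79 and the other 6 at 236.87 or more. The log2 fold change was -0.52 (SE 0.222) between the Activity Reduction and Active groups, the largest in size among the members, with an adjusted p = 0.320 from the Benjamini-Hochberg adjusted quasi-likelihood test of edgeR.

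The other Plod2 estimates were 0.21 (SE 0.220) for Active against Inactive and -0.31 (SE 0.221) for Activity Reduction against Inactive, with adjusted p = 0.762 and 0.809 from the same edgeR test. With the fibroblast level as a covariate, the estimate between the Activity Reduction and Active groups was -0.25. Within the 13 and the 8 libraries of the liver division, the log2 ratio of Plod2 means in that comparison was -0.37 and -0.86, and for Active against Inactive it was 0.25 and -0.20. Exons of Plod2, on chromosome 9 from 92424119 to 92490494, share 7.82% of their length with B430319G15Rik on the opposite strand.

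P4ha1 and P4ha2, the catalytic subunits of prolyl 4-hydroxylase, did not have their highest mean in the Active group. P4ha1 had normalized counts of 2044, 2505 and 2605 (lowest, median, highest) in the Inactive group, 1911, 2118 and 2439 in the Active group and 1970, 2223 and 2313 in the Activity Reduction group. All 7 Active mice and all 7 Activity Reduction mice were below the Inactive median, and 4 Inactive mice were above every mouse of the other groups.

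For P4ha1, the log2 fold change was -0.13 (SE 0.0613) for Active against Inactive, with an adjusted p = 0.460, and -0.14 (SE 0.0613) for Activity Reduction against Inactive, with an adjusted p = 0.604, both from the Benjamini-Hochberg adjusted quasi-likelihood test of edgeR. Among the 13 libraries with fewer liver transcripts the edgeR estimates were -0.27 and -0.21, and among the other 8 the log2 ratios of means were 0.05 and 0.08 against a single Inactive mouse. P4ha1 lies on chromosome 10 of GRCm39 from 59159092 to 59209126 on the plus strand.

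P4ha2 had group means of 1202 ± 50.6, 1111 ± 93.7 and 1198 ± 119 normalized counts in the Inactive, Active and Activity Reduction groups. For P4ha2, 4 of 7 Active mice were below every Inactive mouse. The log2 fold change was -0.11 (SE 0.0626) for Active against Inactive and 0.11 (SE 0.0627) for Activity Reduction against Active, with adjusted p = 0.547 and 0.476 from the Benjamini-Hochberg adjusted quasi-likelihood test of edgeR. Between the Activity Reduction and Inactive groups it was 0.00 (SE 0.0624). The log2 ratio of P4ha2 means for Active against Inactive was -0.18 within the 13 libraries and -0.10 within the other 8.

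Serpinh1, the collagen chaperone, had group means of 1380 ± 131, 1458 ± 135 and 1374 ± 146 normalized counts in the same order. Its values ran from 1242 to 1592, from 1264 to 1716 and from 1104 to 1591, so the ranges were nearly the same. The largest log2 fold change in size was -0.09 (SE 0.0728), between the Activity Reduction and Active groups. For Active against Inactive it was 0.09 (SE 0.0727), and within the 13 and the 8 libraries the log2 ratio of means was -0.01 and -0.01. Serpinh1 correlated with the liver genes at r = 0.573 over the 21 libraries and -0.0111 within the 13.

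**Figure D3:**
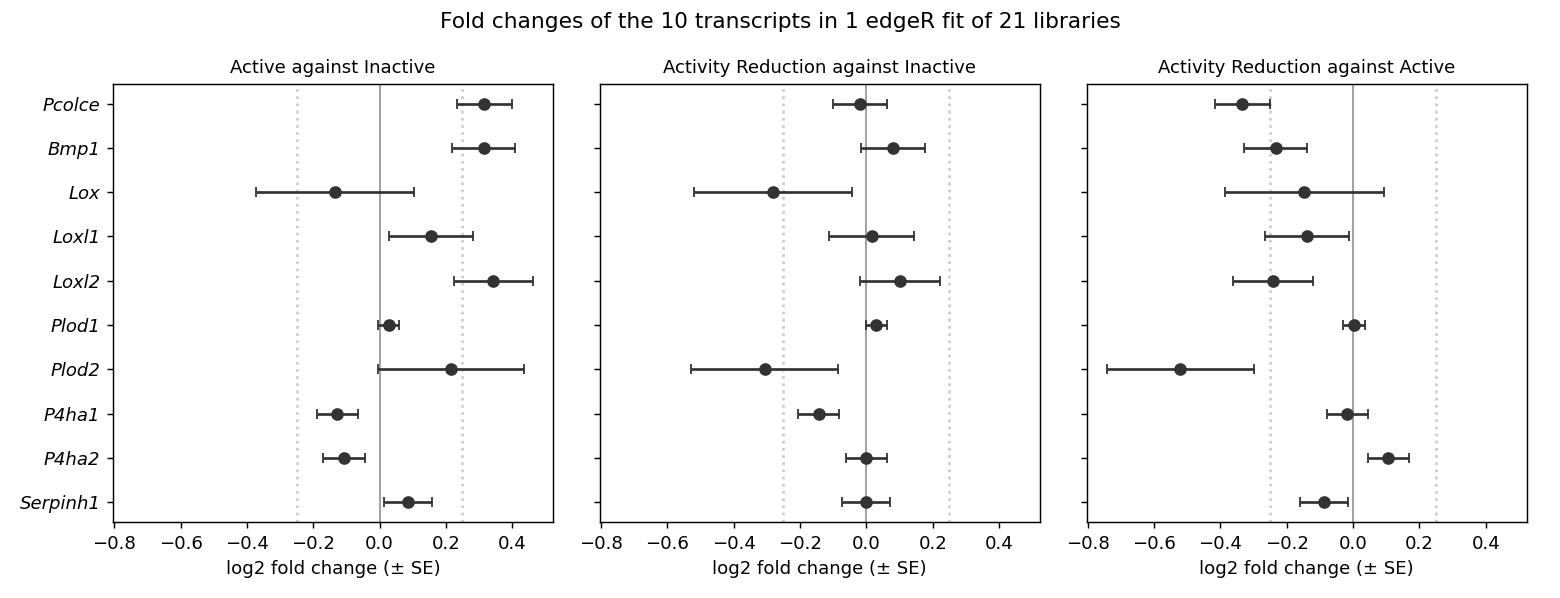
Log2 fold changes of the 10 transcripts in the 3 comparisons from 1 edgeR fit of all 21 libraries, with bars of ±1 SE and dotted lines at the threshold of 0.25. Pcolce, Bmp1 and Loxl2 lie to the right for Active against Inactive (0.32, 0.31 and 0.34), and Plod2 lies farthest to the left for Activity Reduction against Active (-0.52).

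Over the 10 members, the log2 fold change was above 0 for 7 between the Active and Inactive groups, for 5 between the Activity Reduction and Inactive groups and for 2 between the Activity Reduction and Active groups, beside 51.6%, 52.2% and 49.8% of all tested genes. The median of the members was 0.12, -0.00 and -0.14. The size of the log2 fold change was over 0.25 for 3, 2 and 2 members, beside 19.4%, 15.3% and 20.5% of all tested genes. An unadjusted p under 0.05 was reached by 3 members in the first comparison, beside 10.9% of all tested genes, all of them with higher counts in the Active group (Pcolce, Bmp1 and Loxl2), beside 6.18% of genes higher and 4.69% lower. In the second it was reached by 1 member, beside 7.73% of genes, and this was P4ha1, lower in the Activity Reduction group, beside 4.19% of genes higher and 3.54% lower. In the last it was reached by 3, beside 13.3% of genes, all lower in the Activity Reduction group (Pcolce, Bmp1 and Plod2), beside 6.89% of genes higher and 6.44% lower. In the 3-group test, the smallest adjusted p was 0.138 for Pcolce, followed by 0.245 for Bmp1 and 0.323 for Loxl2 (Benjamini-Hochberg adjusted quasi-likelihood test of edgeR).

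Promoter windows of RefSeq (GRCm38.p6), from 250 bases before to 50 bases after the annotated start, were at hand for 5 members, Pcolce, Plod1, P4ha1, P4ha2 and Serpinh1. Those of Pcolce and P4ha1 are shown because the group means of these members were ordered differently, with the Active group highest for Pcolce and the Inactive group highest for P4ha1. Capitals mark the core of the hypoxia response element, ACGTG or GCGTG, on either strand. The Pcolce window is chr5:137611355-137611654 on the minus strand and the P4ha1 window is chr10:59323046-59323345 on the plus strand, both read 5′ to 3′ along the gene.
Pcolce: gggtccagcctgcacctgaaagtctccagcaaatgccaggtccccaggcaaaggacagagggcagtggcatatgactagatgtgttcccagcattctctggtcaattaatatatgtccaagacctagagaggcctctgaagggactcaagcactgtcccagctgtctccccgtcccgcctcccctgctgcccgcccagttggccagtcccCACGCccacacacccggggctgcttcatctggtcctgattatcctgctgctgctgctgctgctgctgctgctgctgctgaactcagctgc
P4ha1: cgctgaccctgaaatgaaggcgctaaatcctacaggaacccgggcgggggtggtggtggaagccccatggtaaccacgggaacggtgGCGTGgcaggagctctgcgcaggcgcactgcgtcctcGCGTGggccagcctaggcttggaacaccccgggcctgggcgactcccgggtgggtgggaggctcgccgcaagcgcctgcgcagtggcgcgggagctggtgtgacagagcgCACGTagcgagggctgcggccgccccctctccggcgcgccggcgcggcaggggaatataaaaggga

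This core is frequent and was found in 43.8% of 32851 RefSeq windows of the same length. It occurred 1 time in the Pcolce window, beginning at position -40 from the start, and 3 times in the P4ha1 window, at -163, -126 and -16. The windows of P4ha2, Plod1 and Serpinh1 held 4, 2 and 1 matches. The GC box GGGCGG, present in 35.7% of all windows on either strand, was found in all 5, with 1 match for Pcolce and 2 for P4ha1, none of which overlaps a hypoxia core in these 2 windows. The letters of the TATA box, TATAAA, were in the windows of P4ha1, beginning at position 39 after the start, and Plod1, at -232. They were in 13.6% of all windows. The SMAD box CAGACA was in the window of Serpinh1, at -213, and in 21% of all windows. A match is a string of letters in the window and does not show that a factor binds there.

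Transcripts that are known targets of the same signals were set beside the members. Of 11 hypoxia response genes, 7, 7 and 5 had a log2 fold change above 0 in the 3 comparisons in the order above, with medians of 0.06, 0.03 and -0.04. The smallest p belonged to Kdm3a, a histone demethylase, at 0.13 (SE 0.0673), and to Egln3, an oxygen sensor, at -0.25 (SE 0.0921) and -0.19 (SE 0.0923). Of 8 ligands and targets of TGF-beta, the main inducer of matrix genes, 7, 7 and 4 were above 0, with medians of 0.22, 0.19 and -0.02, and the smallest p belonged to Tgfbi at 0.37 (SE 0.124), the inhibitor Smad7 at 0.44 (SE 0.151) and Tgfbi at -0.52 (SE 0.125). With edgeR 0 of these 19 genes were called, and DESeq2 gave Tgfbi an adjusted p = 0.00960 between the Activity Reduction and Active groups.

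The pathway holds many other genes, and 25 of them were listed by role, from the shared subunit P4hb to the procollagen N-proteinases. Of these 24 passed the filter on low counts and P4ha3 did not, and edgeR called 0 in each of the 3 comparisons. Their log2 fold change was above 0 for 18, 13 and 6, with medians of 0.10, 0.01 and -0.08. Pcolce2, the paralogue of Pcolce, had normalized counts of 128.3 to 236.8 in the Inactive group, 172.0 to 310.2 in the Active group and 92.3 to 190.4 in the Activity Reduction group.

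The means of Pcolce2 were 139.8 ± 33.7 in the Activity Reduction group and 220.4 ± 51.0 in the Active group (SD, n = 7 each), which overlap in range. The log2 fold change was -0.66 (SE 0.171), with an adjusted p = 0.126 from the Benjamini-Hochberg adjusted quasi-likelihood test of edgeR and 0.0169 from DESeq2. Loxl4, another lysyl oxidase, followed at -0.49 (SE 0.203), with an adjusted p = 0.309 from edgeR's test. In the comparison with the Inactive group Pcolce2 was at -0.33 (SE 0.171) for the Activity Reduction mice.

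Efemp2, an elastic fibre protein that binds Lox, had the smallest p of this list between the Active and Inactive groups. Its means were 131.4 ± 28.7 and 97.28 ± 11.8 normalized counts, a log2 fold change of 0.44 (SE 0.143) with an adjusted p = 0.298 from the Benjamini-Hochberg adjusted quasi-likelihood test of edgeR. It was at 0.27 (SE 0.143) for Activity Reduction against Inactive. Crtap, a partner of prolyl 3-hydroxylase, was at 0.22 (SE 0.114) for Active against Inactive.

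The substrates were also counted, as 16 genes of collagen chains and elastin. Between the Active and Inactive groups 15 of the 16 had a log2 fold change above 0, with a median of 0.32, between the Activity Reduction and Inactive groups 5, with a median of -0.07, and between the Activity Reduction and Active groups 1, with a median of -0.35. edgeR called 0 of them in each comparison. DESeq2 on the 3 groups called Col6a1 between the Active and Inactive groups, where it called 0.442% of genes. Its Wald test gave Col6a1 a Benjamini-Hochberg adjusted p = 0.0430 there. Col1a1, the main chain of collagen I, ran from 638.6 to 2163 normalized counts in the Inactive group, from 1261 to 2700 in the Active group and from 1133 to 1438 in the Activity Reduction group.

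The log2 fold change of Col1a1 was 0.42 for Active against Inactive and -0.68 (SE 0.201) for Activity Reduction against Active, with adjusted p = 0.449 and 0.154 from the Benjamini-Hochberg adjusted quasi-likelihood test of edgeR. Col1a2, the other chain of collagen I, was at 0.37 and -0.51, and Col3a1 was at 0.26 and -0.39. Of the 10 members, 6 had the signs of these chains in both comparisons (Pcolce, Bmp1, Loxl1, Loxl2, Plod2 and Serpinh1). The opposite sign between the Active and Inactive groups was found for 3 (Lox, P4ha1 and P4ha2), and Plod1 was at 0.03 and 0.00. Both comparisons use the Active group, so any gene that is highest there has both signs at once. The share of all genes with both signs was not computed, so nothing is read from these counts. Whether the members and their substrates differ in response was not tested.

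Markers of the cells that make matrix were counted in the same libraries, and edgeR called 0 of them in each comparison. The 8 fibroblast markers, such as Dcn and Pdgfra, summed to 202.7 to 283.4 CPM in the Inactive group, 240.6 to 342.8 in the Active group and 173.8 to 272.2 in the Activity Reduction group. All 8 had a log2 fold change above 0 for Active against Inactive (median 0.24) and all 8 below 0 for Activity Reduction against Inactive (median -0.11) and against Active (median -0.37). An unadjusted p under 0.05 (edgeR's test) was reached by 3, 0 and 7 of the 8 in these comparisons, beside 10.9%, 7.73% and 13.3% of all tested genes. The ranges of the groups overlapped. The 7 tendon markers summed to 13.40 to 78.31, 18.25 to 95.47 and 25.57 to 43.67 CPM, and of them Kera was at 0 in 1 library and Tnmd was at 1.663 CPM or less.

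The 6 endothelial markers summed to 230.0 to 287.6, 247.0 to 321.9 and 218.9 to 257.3 CPM in the Inactive, Active and Activity Reduction groups. In the same order, medians were 16.42, 22.30 and 16.05 CPM for 5 macrophage markers, 103.4, 104.3 and 94.53 for 5 adipocyte markers, 330.1, 329.9 and 314.7 for 5 mural cell markers, 44.65, 47.98 and 55.67 for 4 Schwann cell markers and 243.0, 1510 and 296.4 for the 16 liver genes. For Active against Inactive log2 fold changes were above 0 for 7 of 7 tendon, 5 of 6 endothelial and 16 of 16 liver genes. The same held for 4 of 5 macrophage, 4 of 5 adipocyte and 4 of 5 mural cell markers. It also held for 4 of 4 Schwann cell and 3 of 6 muscle markers. For Activity Reduction against Active 6, 6, 16, 4, 5, 4, 3 and 1 genes of these lists in turn were below 0. Most lists therefore shared the direction of the fibroblast markers.

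Over the 21 libraries, the log2 CPM of Pcolce correlated with the level of the fibroblast markers at r = 0.719 and with that of the endothelial markers at r = 0.721, and that of Bmp1 at 0.579 and 0.774. For Loxl2 the values were 0.575 and 0.516 and for Plod2 0.574 and 0.397. For P4ha1 they were -0.244 and -0.036, and for Plod1 -0.225 and 0.0526. Within the 13 libraries with fewer liver transcripts they were 0.656 and 0.527 for Pcolce, 0.391 and 0.644 for Bmp1 and 0.168 and 0.197 for Loxl2. There they were 0.812 and 0.318 for Plod2, -0.296 and 0.0259 for P4ha1 and -0.396 and -0.0485 for Plod1. These are descriptions over libraries that share their group differences.

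The members also varied with each other. Of their 45 pairs 31 had a positive Pearson correlation of log2 CPM over the 21 libraries, with r between -0.365 (Bmp1 with P4ha1) and 0.750 (Pcolce with Bmp1) and a median of 0.175. By a two-sided permutation test with 100000 resamples and Benjamini-Hochberg adjustment over the 45 pairs, 6 pairs had an adjusted p under 0.05 for Pearson's r, and 0 for Spearman's rho. The 6 were Pcolce with Bmp1 and with Loxl2, Bmp1 with Loxl1 and with Loxl2, and Loxl1 with Loxl2 and with Serpinh1.

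For Pcolce and Bmp1, r was 0.750 (permutation p = 0.00012, adjusted p = 0.00472) and rho was 0.577 (permutation p = 0.00753, adjusted p = 0.0847). Without the 2 libraries farthest from the median of Pcolce r was 0.612, and within the libraries with fewer and with more liver transcripts it was 0.700 and 0.557. For Bmp1 and Loxl2, r was 0.727 (permutation p = 0.00021, adjusted p = 0.00472) and rho was 0.635 (permutation p = 0.0023, adjusted p = 0.0708), with 0.626 without the 2 farthest libraries and 0.565 and 0.814 within the division.

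For the other 4 pairs r lay between 0.606 and 0.654 with permutation adjusted p-values of 0.0237 to 0.0259, and rho between 0.465 and 0.617 with adjusted p-values of 0.0708 to 0.180. Without the 2 farthest libraries, r was 0.431 for Pcolce with Loxl2, 0.519 for Bmp1 with Loxl1, 0.608 for Loxl1 with Loxl2 and 0.595 for Loxl1 with Serpinh1. Bmp1 with Loxl1 was at 0.232 and Loxl1 with Loxl2 at 0.311 within the 13 libraries with fewer liver transcripts, where the other side of the division gave 0.782 and 0.850. With the group means subtracted, 0 of the 45 pairs had an adjusted p under 0.05, and Pcolce with Bmp1 was at 0.610. P4ha1, P4ha2, Plod1, Plod2 and Lox were in none of the 6 pairs.

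**Figure D4:**
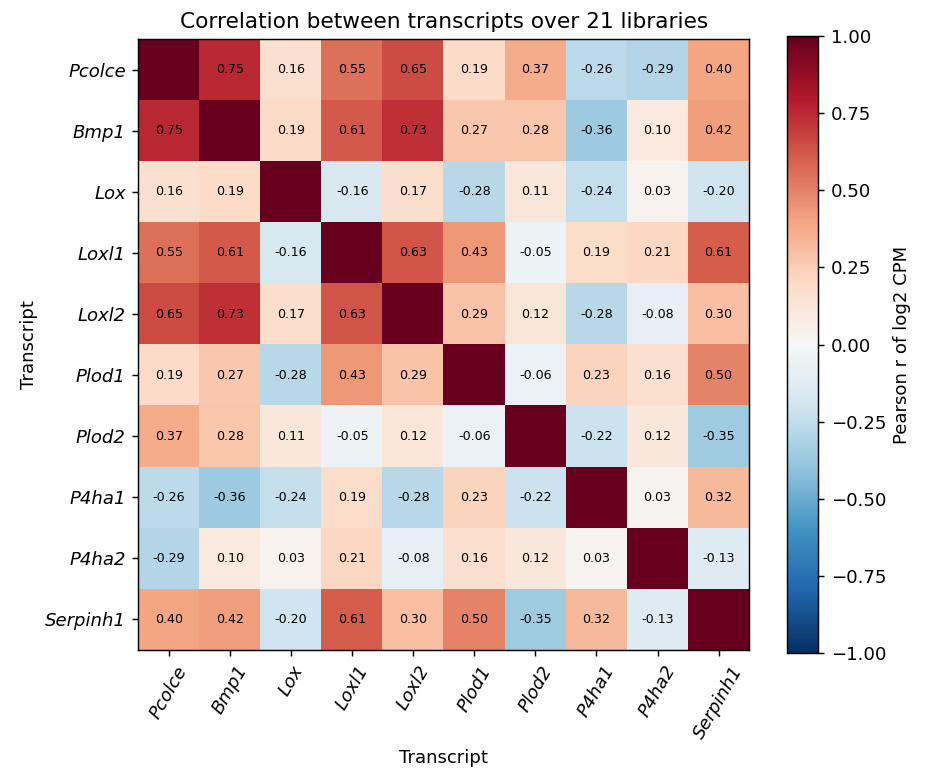
Pearson correlation of log2 CPM between each pair of the 10 transcripts over the 21 libraries, with the value printed in each square and colour from -1 (blue) to 1 (red). Between Pcolce, Bmp1, Loxl1 and Loxl2 the values lie from 0.55 to 0.75, with Lox, which is lower with each of them, drawn between Bmp1 and Loxl1. P4ha1 is weakly negative with Bmp1.

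Bmp1 and Loxl2 are both on chromosome 14 of GRCm39, on opposite strands. Loxl2 ends at 69933283 and Bmp1 runs from 70711689 to 70758178. Whether position has a part in any correlation was not tested. The other members lie on different chromosomes, apart from Loxl1 and Plod2, which are both on chromosome 9 and correlated at r = -0.0472.

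The genes most like each member were sought among the 16119 other tested genes by Pearson correlation of log2 CPM over the 21 libraries, as a description. For Pcolce these were Col6a1, a chain of the microfibrillar collagen VI, at 0.928 and Mrc2, a collagen uptake receptor, at 0.877. Col6a1 was also the gene most like Loxl2, at 0.808, followed by the fibrillar chain Col5a1 at 0.806. Without the 2 libraries farthest from the Pcolce median, Pcolce and Col6a1 were at 0.840, and within the division at 0.916 and 0.890. The normalized count of Col6a1 was 1652 ± 298 in the Inactive, 2166 ± 390 in the Active and 1686 ± 92.1 in the Activity Reduction group.

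**Figure D5:**
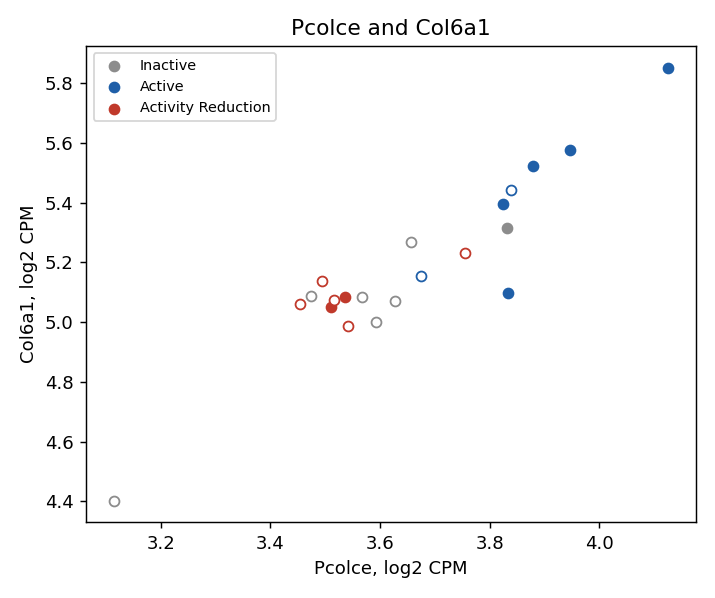
Log2 CPM of Pcolce (horizontal axis) against Col6a1 (vertical axis), with 1 point per library, colours for the groups, and filled points for the libraries with more liver transcripts. Over the 21 libraries Pcolce and Col6a1 correlated at r = 0.928. The Activity Reduction points lie between 3.455 and 3.541 on the Pcolce axis, apart from replicate 7 at 3.756. A correlation within each group was not computed.

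Among the genes most like Plod2 was Hoxd8, a position gene of the trunk and limbs, at 0.820. Within the libraries with fewer and more liver transcripts Plod2 and Hoxd8 correlated at 0.877 and 0.887, and without the 2 libraries farthest from the Plod2 median they were at 0.748.

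Among the genes most like Bmp1 was Cd34, a marker of endothelial and connective tissue progenitor cells, at 0.853, and Serpinh1 was most like Plxnd1, a vascular semaphorin receptor, at 0.851 and Rasl12 at 0.850. P4ha1 was most like the kinase Dyrk2 at 0.873 and Cpeb1, a regulator of mRNA translation, at 0.829. The closest genes of the other members were Fgl2 (0.795) and Agtrap (0.740) for Lox, Arsi (0.778) and Mxra7 (0.777) for Loxl1, Tnfrsf12a (0.739) and Apol9a (0.723) for Plod1, and Nr1h3 (0.754) and Bysl (0.681) for P4ha2. Nothing on shared control follows from such a likeness, which was the highest of many correlations.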

How the data were processed

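RNA-seq of the medial gastrocnemius of 21 female mice was analysed. The values deposited by the authors are raw counts per gene, made by trimming reads with fastp, alignment to GRCm39 with STAR and counting with featureCounts, with versions, annotation release and strand setting not given in the sources used here. Another deposited table, named for normalized values, held the same 857913 values and was not used. From the raw counts, normalized counts were computed by dividing by DESeq2 size factors. Group differences were tested with edgeR 4.0.16 (limma 3.58.1, R 4.3.3), by the quasi-likelihood test after TMM normalization and filterByExpr, in 1 fit of the 21 libraries with Benjamini-Hochberg adjustment over 16129 genes. A gene was called at an adjusted p under 0.05 and a log2 fold change over 0.25 in either direction, and DESeq2 1.42.0 was the alternative. Correlations used log2 CPM with a prior count of 2.

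Each group held 7 mice, and p-values measure the spread between mice. The members, gene lists and cell markers were chosen with earlier results of these data known. Named were all members, and by fixed rules 2 further pathway genes per comparison, 3 collagen chains, 1 hypoxia and 1 TGF-beta gene per comparison and the 2 genes most like each member, of which some are not reported here. Tgfbi and Col6a1 under DESeq2 and the Col6a1 levels were chosen after their values were seen. Exon lengths came from GENCODE on GRCm39 and promoters from RefSeq. Depth was 38482455 to 59785132 counts per library. Scripts were tested on simulated data. Alternatives changed the tool, normalization, filter, covariates, libraries, length and scale.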

Additional observations from a re-analysis of the deposited data

Results flagged for a closer look

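In 2 of the 30 sets of 7 mice (10 members in 3 groups), 1 mouse stood apart from the rest by Dixon's criterion. Chance alone singles out about 1 in 20 such sets. For Pcolce in the Activity Reduction group, replicate 7 was the highest at 667.3 normalized counts, the nearest other mouse was at 574.5, and the gap was 0.732 of the range of the group. For Plod2 in the Active group, replicate 3 was the lowest at 113.8, the nearest other mouse was at 236.9, and the gap was 0.643 of the range. Without Activity Reduction replicate 7, DESeq2 called 2 members between the Activity Reduction and Active groups, Pcolce and Plod2. The share of all genes called in that fit was not computed, so nothing is read from this count.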

How the results depend on the processing

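The choice of tool decided the calls. With edgeR, 0 members and 0 other processing genes were called in every comparison under each alternative run, including each of the 21 fits without 1 mouse. DESeq2 on the 3 groups called 1 member, Pcolce, between the Active and Inactive groups, between the Activity Reduction and Active groups and in the 3-group test, and 1 other processing gene, Pcolce2, between the Activity Reduction and Active groups. DESeq2 on only the 14 libraries compared called 1 member, Pcolce, and 1 other gene, Pcolce2, in the latter comparison. In alternatives chosen after seeing the data, DESeq2 called 0 members with the liver division or the fibroblast level as a covariate or with only the 13 libraries with fewer liver transcripts. DESeq2 without 1 mouse at a time called 0 to 3 members between the Active and Inactive groups, above 0 in 9 of 21 fits. It called 3 without Active replicate 2 (Pcolce, Bmp1 and Loxl2) and 2 without Inactive replicate 1 (Pcolce and Bmp1). Between the Activity Reduction and Active groups it called 0 to 2, above 0 in 18 of 21, and between the Activity Reduction and Inactive groups 0. The share of all genes called was computed only for DESeq2 on the 3 groups, so nothing is read from the counts of its other fits. The replicate numbers were not taken to pair the mice. Of 21 same-number pairs 7 had a correlation over 0.1 (from -0.222 to 0.471), and in 4 pairs the best match was the own number. These were replicate 1 in each comparison and replicate 5 between the Activity Reduction and Inactive groups. The replicate 1 libraries of all groups were on the side with more liver transcripts, so these correlations do not settle whether the numbers pair the mice. With the replicate block 0 members were called in each comparison. Of the 45 pairs of members, 6 had an adjusted p under 0.05, as with normalized counts, but 0 did with group means subtracted, and 0 within either side of the liver division, where fewer libraries entered. With the longest transcript as length, 6 members changed rank. Of 930 member log2 fold changes under the alternatives, 23 moved by more than their SE and 61 changed sign. Many sign changes fell on estimates near 0. P4ha2 between the Activity Reduction and Inactive groups (main estimate 1.318e-05) had 22, and Plod1 between the Activity Reduction and Active groups (0.003076) had 15. The cause of these shifts was not tested. Depth limits Lox, Loxl2 and Plod2 most, with lowest counts of 60, 109 and 109.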
